A study of Caenorhabditis elegans with 2 samples.

Results

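The hsp-16 genes are the small heat shock genes of the nematode Caenorhabditis elegans that lie head to head in divergent pairs, and their surroundings were examined in a map of an eGFP-tagged CEH-30 protein. They are 6 of the 19973 protein-coding genes of the nuclear chromosomes: hsp-16.1, hsp-16.48, hsp-16.49 and hsp-16.11 in a cluster of 4 genes, and hsp-16.2 and hsp-16.41 in a cluster of 2 genes, all on chromosome V. The genes were selected on measured values, namely the summits and signal of the peak lists described here, within each gene and 2000 bp to both sides, so their having a peak is a description and not a finding. Chromatin immunoprecipitation followed by sequencing (ChIP-seq) was done on strain OP120 at the late embryo stage, using whole animals of both sexes together. OP120 has the unc-119(ed3) mutation on chromosome III and the integrated transgene wgIs120, the source of the tagged CEH-30. The 2 biological replicates had the same genotype, stage and treatment and formed 1 group, so the comparisons are between replicates and between the gene clusters. Every cell of the embryo was sampled together, the transgene is 1 integrated line that adds CEH-30 copies to those of the animal, and the control library that the labels name was not analysed here.

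Small heat shock proteins are chaperones that hold unfolding proteins in solution without using ATP, and they share an alpha-crystallin domain. The hsp-16 genes are nearly silent in unstressed worms and are strongly switched on by heat through the heat shock factor HSF-1, which binds repeats of the unit GAA in alternating orientation, called heat shock elements. CEH-30 is a BarH-type homeodomain protein known for keeping male-specific CEM sensory neurons alive.

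The genes form 2 sequence types that face each other across each divergent gap. Ensembl gives the name hsp-16.1 to hsp-16.1 and hsp-16.11, and the name hsp-16.48 to hsp-16.48 and hsp-16.49, and RefSeq tells them apart. In WBcel235 (ce11) coordinates, hsp-16.1 (WBGene00002015) lies at V:9087293-9087782 on the minus strand and hsp-16.48 (WBGene00002019) at V:9088131-9088617 on the plus strand. Their copies hsp-16.49 (WBGene00002020), at V:9089280-9089766 on the minus strand, and hsp-16.11 (WBGene00002017), at V:9090077-9090604 on the plus strand, follow. The separate pair is hsp-16.2 (WBGene00002016) at V:1804334-1804957 on the minus strand and hsp-16.41 (WBGene00002018) at V:1805178-1805875 on the plus strand. Each gene has 2 exons. The coding sequence has 435 bases in hsp-16.1, hsp-16.11 and hsp-16.2, and 429 bases in hsp-16.48, hsp-16.49 and hsp-16.41. The coding sequences of hsp-16.1 and hsp-16.11 were 100% identical, as were those of hsp-16.48 and hsp-16.49. Across clusters, hsp-16.1 and hsp-16.2 were 90.6% identical and hsp-16.48 and hsp-16.41 were 92.1% identical, while the members facing each other in a pair were 70.6% (hsp-16.1 and hsp-16.48) and 67.6% (hsp-16.2 and hsp-16.41) identical.

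The sequence between the divergent genes holds the heat shock elements, and it is shown because no list placed a summit in it. The stretches below, from the RefSeq assembly of WBcel235, run from 20 bases before the first to 20 bases after the last run of 3 alternating units, 5′ to 3′. The first is V:9087846-9088052 on the plus strand, and V:9089845-9090051 on the minus strand, between hsp-16.11 and hsp-16.49, has the identical letters. The second is V:1804995-1805201 on the plus strand. Capitals mark the TTC and GAA units of these runs.
hsp-16.1 / hsp-16.48: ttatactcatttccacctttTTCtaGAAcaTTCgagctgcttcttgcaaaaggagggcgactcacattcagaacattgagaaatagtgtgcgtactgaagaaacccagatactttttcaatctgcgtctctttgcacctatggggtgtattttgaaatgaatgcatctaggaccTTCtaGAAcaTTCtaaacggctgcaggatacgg
hsp-16.2 / hsp-16.41: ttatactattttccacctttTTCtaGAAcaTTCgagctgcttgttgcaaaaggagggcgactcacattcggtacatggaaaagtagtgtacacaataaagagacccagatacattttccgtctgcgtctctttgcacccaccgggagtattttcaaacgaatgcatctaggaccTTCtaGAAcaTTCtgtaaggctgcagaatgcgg

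Each stretch is 207 bases long, and the stretches of the different clusters were 86.5% identical. Each holds 2 runs, and their starts are 154 bases apart in every pair. The 3 units of both runs, and the bases between the units, are the same letters in both clusters. The run nearer hsp-16.41 covers the annotated 5′ end of that gene, with its last 4 bases inside the gene. The nearest run lies 84 bp from the 5′ end of hsp-16.1, 99 bp from that of hsp-16.48, 46 bp from that of hsp-16.11 and 99 bp from that of hsp-16.49. The copies hsp-16.1 and hsp-16.11 have the same sequence there, so 84 and 46 bp differ only through where their 5′ ends are annotated. In the other cluster it lies 58 bp from the 5′ end of hsp-16.2, and at hsp-16.41 it covers the 5′ end as described.

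**Figure D1:**
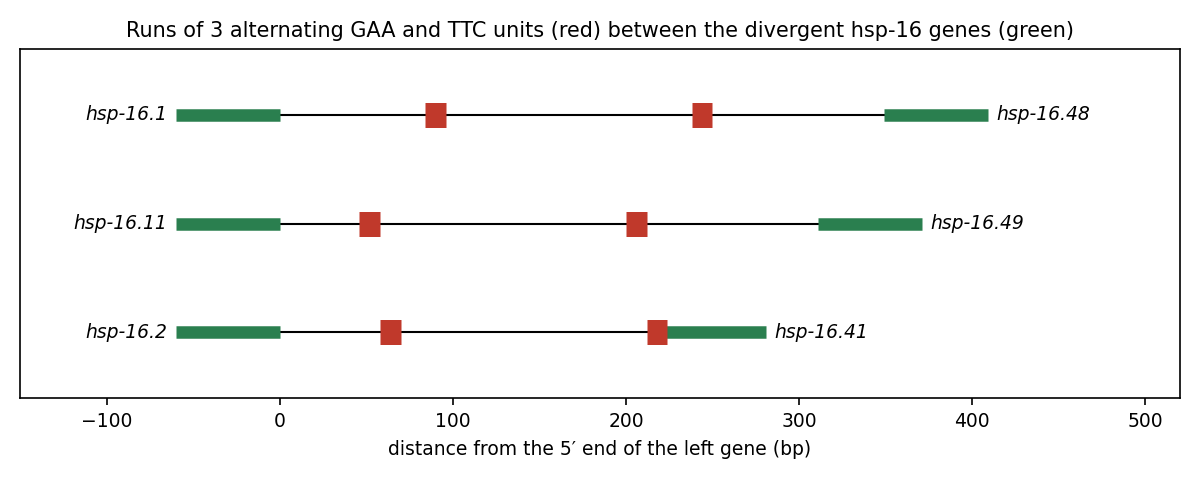
Position of each run of 3 alternating GAA and TTC units (red boxes) between the 5′ ends of the facing hsp-16 genes (green bars), in bp from the 5′ end of the left gene, with 1 row for each divergent pair. Each pair holds 2 runs with starts 154 bases apart, and the right run of the lowest row overlaps the start of hsp-16.41.

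The strongest peak of the 4-gene cluster lay between the 3′ ends of hsp-16.48 and hsp-16.49, not between divergent genes. Each peak has a signal, the authors' own peak height, and a rank by signal within its list, with rank 1 the highest. The optimal list is the authors' final list and held 545 peaks, and the relaxed lists, made before the final selection, held 30000 peaks for the pooled replicates, 30000 for replicate 1 and 17926 for replicate 2. The optimal list was equal to the 545 pooled peaks of highest signal, whose signal ran from 38.9 to 792 with a median of 48.5. All 6 hsp-16 genes had a summit in the optimal list, against 4.84% of protein-coding genes, in the pooled list (81.2% of genes), in replicate 1 (81.7%) and in replicate 2 (67.7%). Since the genes were selected on these lists, nothing is read from those counts.

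Only 3 optimal peaks served the 6 genes. The letters within 50 bp of their summits are given on the plus strand of WBcel235 from the RefSeq assembly, because they are the places of the optimal peaks at these genes. They are V:9088954-9089054 between hsp-16.48 and hsp-16.49, V:9091121-9091221 beyond hsp-16.11, and V:1805452-1805552 in hsp-16.41. Capitals mark the letters TATAAA in the first of them. Neither the heat shock element pairs nor the other words of 6 bases searched, all named with the gaps, stood in these windows.
hsp-16.48 / hsp-16.49: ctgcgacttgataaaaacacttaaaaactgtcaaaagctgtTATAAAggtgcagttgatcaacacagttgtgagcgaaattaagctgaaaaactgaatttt
beyond hsp-16.11: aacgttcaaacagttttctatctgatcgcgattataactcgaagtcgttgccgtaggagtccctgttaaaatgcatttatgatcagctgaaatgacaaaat
in hsp-16.41: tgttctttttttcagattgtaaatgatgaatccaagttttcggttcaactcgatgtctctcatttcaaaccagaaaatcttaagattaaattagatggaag

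The first of these peaks, V:9088792-9089158, with its summit at V:9089004 in intergenic sequence, had a pooled signal of 92.4 and rank 26. Its summit lay 276 bp past the 3′ end of hsp-16.49, within 2000 bp of all 4 genes of the cluster. The overlapping peak had a signal of 14.3 and rank 1650 in replicate 1, and a signal of 79.8 and rank 7 in replicate 2. Replicate 2 therefore placed it among its highest peaks and replicate 1 did not.

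The second optimal peak of the cluster, V:9090999-9091342, had its summit at V:9091171, 567 bp past the 3′ end of hsp-16.11, in intergenic sequence between the small nuclear RNA genes T27E4.10 and T27E4.12. Its pooled signal was 45.02 and its pooled rank 358. The overlapping peak had a signal of 6.02 and rank 26388 in replicate 1, and a signal of 40.9 and rank 73 in replicate 2. Of the 538 optimal peaks that overlapped a peak of both replicates, this one had the lowest rank in replicate 1.

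At the 2-gene cluster the optimal peak lay in a gene. The peak V:1805330-1805673 had its summit at V:1805502 in a coding exon of hsp-16.41, 324 bp downstream of its 5′ end and 545 bp upstream of the 5′ end of hsp-16.2. Its pooled signal was 52.7 and its pooled rank 213. The overlapping peak had a signal of 10.7 and rank 5153 in replicate 1, and a signal of 49.6 and rank 39 in replicate 2. Of the 3 optimal peaks at hsp-16 genes, this was the only one within a member. It again stood nearer the top of the list in replicate 2 (top 0.218% of peaks) than in replicate 1 (top 17.2%).

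The highest signal was 1.75 times as high at the 4-gene cluster as at the 2-gene cluster in the pooled list, 92.4 against 52.7. Within replicate 1 the values were 18.03 and 13.9, a ratio of 1.30, and within replicate 2 they were 79.8 and 49.6, a ratio of 1.61. Both replicates gave the same order, but replicate 1 took its highest summits from other places, V:9086481 on the hsp-16.1 side of the 4-gene cluster and V:1807178 beyond hsp-16.41. Those stood at ranks 788 and 1899 of replicate 1. The corresponding peaks of replicate 2 had ranks 3234 and 8671. With 2 replicates and scales that differ between lists, no error can be set on these ratios.

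The relaxed lists gave the 4-gene cluster 5 pooled summits, 6 in replicate 1 and 6 in replicate 2, and the 2-gene cluster 7 in each of the 3 lists. At the 4-gene cluster the pooled signals ran from 13.2 to 92.4 with a median of 20.4, replicate 1 signals from 6.02 to 18.03 with a median of 10.4, and replicate 2 signals from 7.98 to 79.8 with a median of 14.2. All 5 pooled summits there were intergenic. At the 2-gene cluster the pooled signals ran from 12.31 to 52.7 with a median of 23.1, replicate 1 signals from 6.48 to 13.9 with a median of 8.74, and replicate 2 signals from 9.98 to 49.6 with a median of 14.5. Of the 7 pooled summits there, 2 lay in coding exons of hsp-16.2, 1 in a coding exon of hsp-16.41 and 4 in intergenic sequence.

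One pooled peak came close to the optimal list. Its summit, V:1806158, 283 bp past the 3′ end of hsp-16.41, had a pooled signal of 37.01 and rank 625, just under the lowest optimal signal of 38.9. The overlapping peaks had a signal of 6.69 and rank 21194 in replicate 1, and a signal of 39.4 and rank 82 in replicate 2. The replicate 1 peak had its summit 279 bp away and also overlapped the next pooled peak, so it is the only match and not the same place. In replicate 2 this was the second-highest peak at the 2-gene cluster.

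The hsp-16.2 gene had 2 pooled summits within it, at V:1804547 with a signal of 23.1 and rank 2293 and at V:1804752 with a signal of 19.5 and rank 4264. Replicate 2 had peaks at V:1804508 and V:1804726 with signals of 14.5 and 15.7. Replicate 1 had 1 peak there, at V:1804797, in the intron of hsp-16.2, with a signal of 8.996 and rank 9416. Past the 3′ end of hsp-16.2, the pooled summit V:1804085 had a signal of 20.03 and rank 3824, with ranks of 10352 in replicate 1 and 6946 in replicate 2. At that place the replicates were closer in rank than at hsp-16.41.

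The pooled summits farthest from a gene inside the window lay 1614 bp from the 4-gene cluster, with a signal of 13.2, and 1303 bp from the 2-gene cluster, with a signal of 25.4. The nearest outside it lay at 2407 bp with a signal of 11.1 and at 2635 bp with a signal of 21.5. The next optimal summits lay 84846 bp from the 4-gene cluster and 60676 bp from the 2-gene cluster. Besides the members, the windows of the 4-gene cluster reached T27E4.11, T27E4.10, T27E4.12 and T27E4.22, annotated as small nuclear RNA genes, the non-coding RNA gene T27E4.15 and the protein-coding gene T27E4.1. The windows of the 2-gene cluster reached srt-41 and srt-42, of the serpentine receptor class T family.

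The rank in replicate 1 exceeded that in replicate 2 by more at these peaks than at most optimal peaks. The log2 ratio of the rank in replicate 1 to the rank in replicate 2 was 7.88 at the spacer peak, 8.50 beyond hsp-16.11 and 7.05 in hsp-16.41. Its median over the 538 optimal peaks matched in both replicates was 0.03. The ratio is signed, so differences in opposite directions offset each other in that median. It uses ranks from lists of unlike length, 30000 and 17926 peaks, so ranks above 17926 occur only in replicate 1. The replicate 1 peak beyond hsp-16.11 had a signal of 6.02, against a median of 7.70 and a minimum of 5.61 in its list. Ratios at least as large in the same direction were held by 4, 3 and 8 of the 538 peaks, counting each peak itself. A further 6 optimal peaks overlapped no replicate 1 peak. The median rank was 336 in replicate 1 and 316.5 in replicate 2. A summit among the 545 highest peaks of replicate 1 lay at 0 of the 6 hsp-16 genes, against 4.98% of protein-coding genes. Among the 545 highest peaks of replicate 2 it lay at 6 of 6, against 4.61% of protein-coding genes. Over the whole optimal list, 237 peaks overlapped the highest 545 of both replicates, 122 those of replicate 1 alone, 145 those of replicate 2 alone and 41 neither, so the replicates disagreed on other peaks in both directions. The genes were chosen with these ranks known, so the position of the hsp-16 peaks at the edge of that spread is a description. Read depth in each replicate is unknown, and its part in the difference was not tested.

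**Figure D2:**
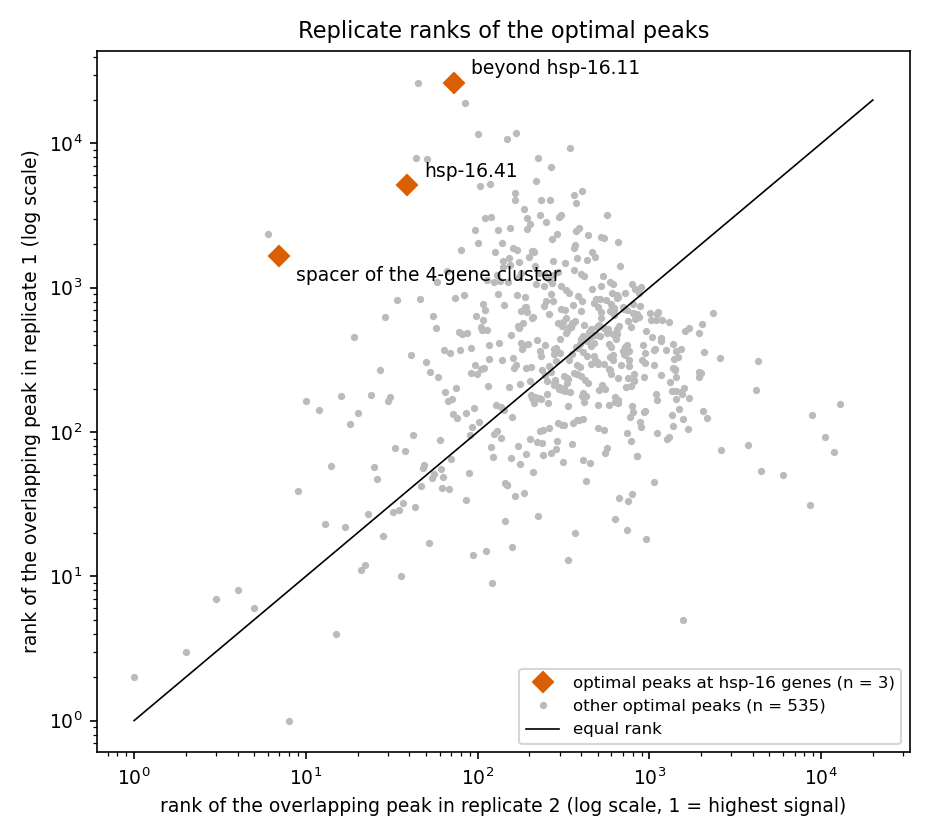
Rank of each of the 538 matched optimal peaks in replicate 1 against replicate 2 (both log scales, rank 1 the highest signal), with the 3 optimal peaks at hsp-16 genes as orange diamonds and the others in grey. The hsp-16 peaks sit at the upper left, at ranks 1650 to 26388 in replicate 1 and 7 to 73 in replicate 2.

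Peaks with a similar set of ranks lay elsewhere in the genome. Likeness was measured as the sum of the absolute log2 rank differences in the pooled, replicate 1 and replicate 2 lists, over 535 other optimal peaks matched in all 3 lists. The peaks most like the spacer peak were nearest to Y53G8B.2 (a sum of 0.79, ranks 25, 2352 and 6 in the pooled, replicate 1 and replicate 2 lists), C16C10.4 (4.12) and pxn-1 (4.16). Those at C16C10.4 and pxn-1 were less alike, at ranks 456 and 163 in replicate 1 against 1650 at the spacer peak. The summit named for pxn-1 lay 5658 bp from the 5′ end of that gene. The peaks most like that in hsp-16.41 were nearest to M02F4.2 (1.00, ranks 210, 7751 and 51), C17H12.2 (1.15) and nhr-205 (1.97).

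The 4-gene cluster is a perfect inverted repeat, and its summits all lay in the spacer between the arms or outside them. Each arm has 1881 bases, V:9086861-9088741 and V:9089156-9091036, and the arms match with 0 mismatches when one is read on the opposite strand. The left arm holds hsp-16.1 and hsp-16.48 with the gap between them, and the right arm hsp-16.49 and hsp-16.11 with theirs. The arms also hold nearly all of T27E4.11 and T27E4.10. Between the arms lies a spacer of 414 bases, V:9088742-9089155. The join of each arm to the spacer is shown to mark where the copies end, V:9088712-9088771 on the plus strand and V:9089126-9089185 on the minus strand, with the arm in capitals.
left arm and spacer: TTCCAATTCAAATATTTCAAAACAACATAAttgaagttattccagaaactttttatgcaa
right arm and spacer: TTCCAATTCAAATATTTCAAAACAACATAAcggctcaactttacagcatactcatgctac

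No list had a summit in either arm. The spacer held 1 summit in the optimal, pooled, replicate 1 and replicate 2 lists. The spacer summit lay 152 bp from the nearer arm in the pooled list, 174 bp in replicate 1 and 206 bp in replicate 2. The pooled peak reached 3 bases into an arm, the replicate 1 peak 2 bases and the replicate 2 peak 13 bases. The other optimal summit, V:9091171, lay 135 bp outside the right arm. To the left, the nearest summits lay 426 bp outside the arm in the pooled list, 177 bp in replicate 1 and 512 bp in replicate 2. All 4 genes of the cluster, their divergent gaps and their heat shock elements were thus without a summit in any list.

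Every word of 32 bases in the arms stands at more than 1 place in the genome, counting both strands, as 100% of words do in hsp-16.1, hsp-16.48, hsp-16.49 and hsp-16.11. The share was 0% in the spacer, 0% in the left flank and 9.37% in the right flank, where the repeated words fall near T27E4.12. In hsp-16.2 it was 2.70%, in hsp-16.41 1.95% and in the gap between them 1.06%, against 8.55% of all words of the nuclear genome. Within 50 bp of the 3 optimal summits at hsp-16 genes, 0% of words were repeated. Over the genome, 4.59% of windows of the same length had all words repeated. Such windows held 0 of the 545 optimal summits, 47 of the 30000 pooled summits (0.157%), 44 of those of replicate 1 and 28 of the 17926 of replicate 2. How the authors' alignment treated reads that match several places is not given in the sources used here, and its part in the lack of summits over the arms was not tested.

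**Figure D3:**
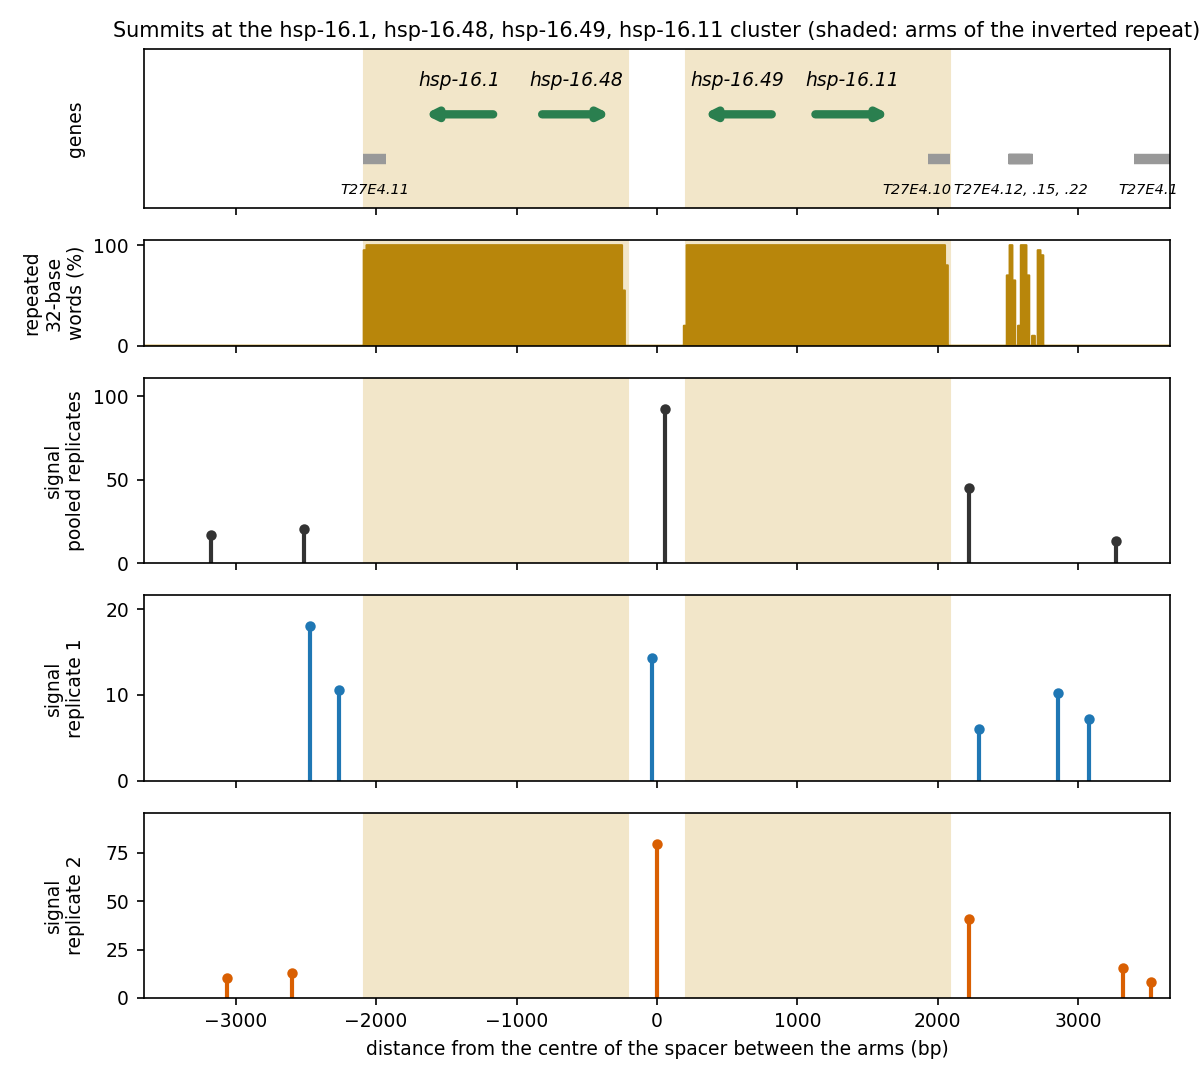
Genes (green arrows for members, grey bars for neighbours), share of 32-base words found elsewhere in the genome (percent, steps of 20 bp) and summits with their signal in the pooled, replicate 1 and replicate 2 lists, by distance in bp from the centre of the spacer of the 4-gene cluster. No summit falls in the shaded arms, and the tallest pooled and replicate 2 summits, at 92.4 and 79.8, stand in the spacer.

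**Figure D4:**
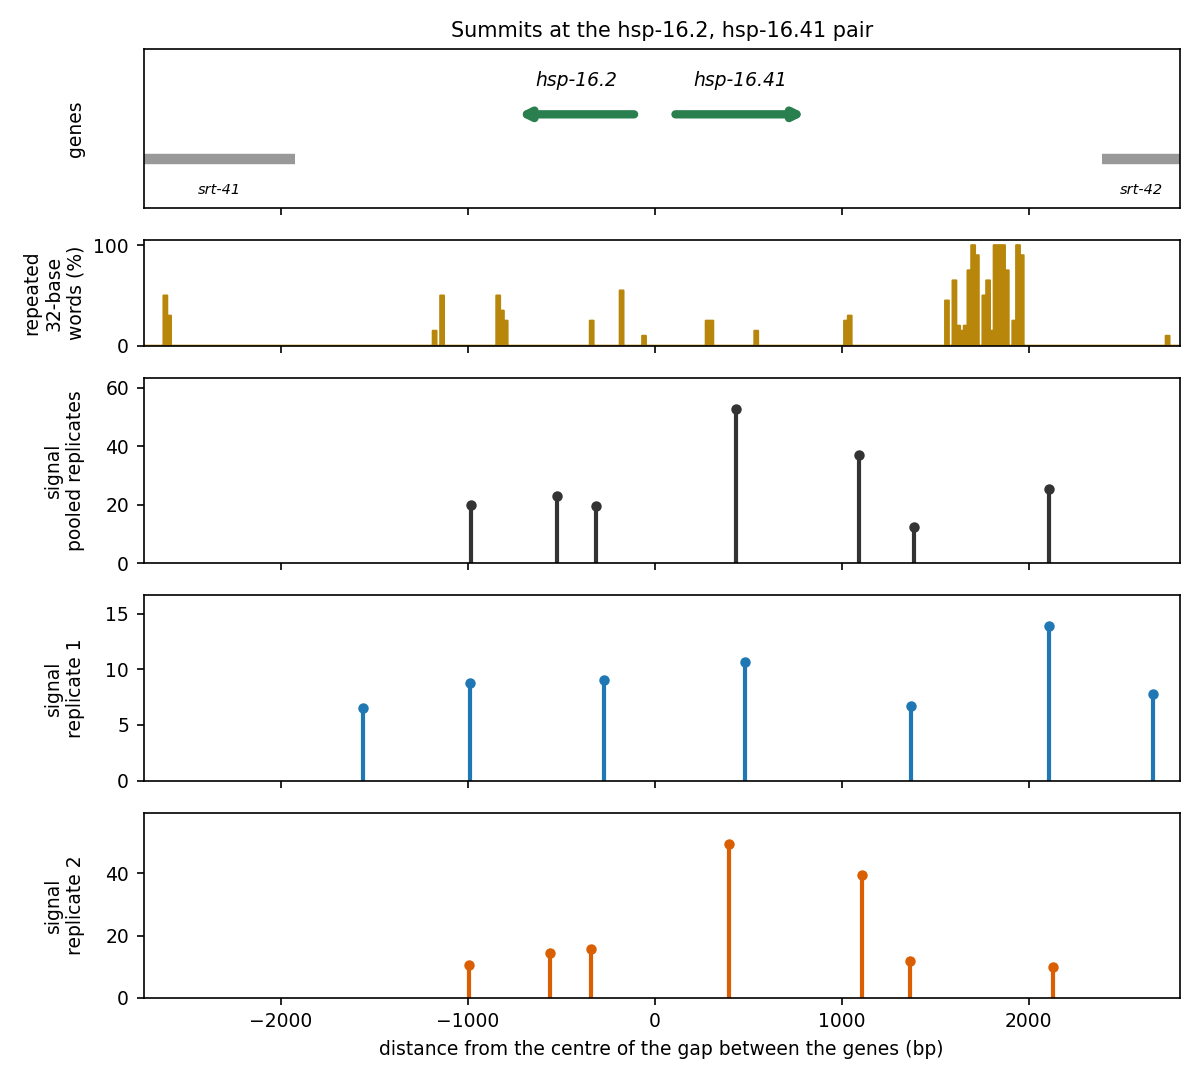
The same panels for hsp-16.2 and hsp-16.41, by distance in bp from the centre of the gap between them. Summits fall within both genes, none falls in the gap, and the tallest pooled and replicate 2 summits, at 52.7 and 49.6, stand in hsp-16.41.

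The divergent gaps had no summit in either cluster. The gap between hsp-16.1 and hsp-16.48 (V:9087783-9088130) has 348 bases, that between hsp-16.11 and hsp-16.49 (V:9089767-9090076) 310 bases and that between hsp-16.2 and hsp-16.41 (V:1804958-1805177) 220 bases. For hsp-16.1 and hsp-16.48 the nearest summit lay 874 bp from the gap in the pooled list, 785 bp in replicate 1 and 820 bp in replicate 2. For hsp-16.11 and hsp-16.49 these distances were 763, 852 and 817 bp. For hsp-16.2 and hsp-16.41, a gap of nearly unrepeated sequence, they were 206, 161 and 232 bp, all to summits within hsp-16.2. Of the 465 head-to-head pairs of protein-coding genes with gaps of 200 to 400 bp in the genome, the hsp-16 pairs among them, 36 (7.74%) had an optimal summit in the gap, 199 (42.8%) a pooled summit, 178 (38.3%) a replicate 1 summit and 154 (33.1%) a replicate 2 summit. The hsp-16 pairs gave 0 of 3 in every list, and no test was made of so few. In every list most of the 465 pairs had no summit in the gap either. In the gaps of hsp-16.1 and hsp-16.48 and of hsp-16.11 and hsp-16.49, 100% of 32-base words stand elsewhere in the genome too. The 465 pairs were not limited to such sequence, so only the gap of hsp-16.2 and hsp-16.41 (1.06%) can be set against their shares.

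Heat shock element words were frequent in the gaps and were also counted at the summits. The words GAANNTTC and TTCNNGAA, each an inverted pair of units and searched on both strands with overlaps counted, stood at 4 places in the gap of hsp-16.1 and hsp-16.48, 4 in that of hsp-16.11 and hsp-16.49 and 3 in that of hsp-16.2 and hsp-16.41, where the annotated start of hsp-16.41 leaves out the last unit. As many stood in 0.511%, 0.345% and 0.691% of the sequences of the same length upstream of the 19973 genes. At least 1 stood in 36.1%, 32.9% and 23.9% of them. Within 50 bp of each of the 3 optimal summits at hsp-16 genes there were 0 such words, and 6.61% of the 545 optimal summits had at least 1. Their absence at 3 summits is therefore near the share of all optimal summits, and the summit windows are shorter than the gaps. A word count describes letters only and does not show which factor was bound.

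Other words searched on both strands were TATAAA, the letters of a TATA box, and the homeodomain word TAATTG. The homeodomain words TAATTA, a palindrome, and TAAACG were searched likewise, and so was the word GACGCA. The TATA word stood once in each gap, as in 43.3%, 40.3% and 32.2% of upstream sequences of those lengths, and once at the spacer summit, as at 5.69% of optimal summits. TAATTG stood once in the gap of hsp-16.1 and hsp-16.48, as in 28.4% of upstream sequences of that length, and in neither of the others (25.7% and 18.9%). The gap of hsp-16.11 and hsp-16.49 is shorter only because the annotated 5′ end of hsp-16.11 lies closer to hsp-16.49. The arms match throughout, so the same TAATTG stands in the right arm, outside that annotated gap. TAATTA stood in none of the gaps, against 19.4%, 17.8% and 12.9% of upstream sequences. TAAACG stood once in each gap of the 4-gene cluster, as in 12.602% and 11.6% of upstream sequences, and was not found in that of hsp-16.2 and hsp-16.41 (8.51%). GACGCA stood once in each gap, as in 9.87%, 9.02% and 6.65% of upstream sequences, and at 18.7% of optimal summits but at none of the 3 at hsp-16 genes. The homeodomain words stood at none of the 3 summits either, against 3.49% of optimal summits for TAATTG, 2.02% for TAATTA and 2.57% for TAAACG. The share of G and C within 50 bp was 33.7% at the spacer summit, 37.6% beyond hsp-16.11 and 30.7% in hsp-16.41, with a median of 48.5% over the optimal summits.

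Other chaperone genes were described with the same window for comparison. Of 32 genes listed, 31 were matched by name, and 10 had an optimal summit within the gene and 2000 bp to both sides, against 4.84% of protein-coding genes. The gene not matched was daf-21, of the list of hsp90, hsp60 and co-chaperones, so its peaks were not examined. A pooled summit was held by 30 (81.2% of protein-coding genes), a replicate 1 summit by 30 (81.7%) and a replicate 2 summit by 26 (67.7%). Among 10 other small heat shock genes, 2 had an optimal summit, hsp-12.3 and hsp-12.6, which share 1 peak with a pooled signal of 52.05 and best ranks of 281 in replicate 1 and 397 in replicate 2. Among 9 hsp70 and hsp110 genes, 4 did: the heat-inducible F44E5.4 (pooled signal 91.3), hsp-110 (70.02), hsp-3 of the endoplasmic reticulum (50.9) and the constitutive cytosolic hsp-1 (39.5). Among 8 matched genes of hsp90, hsp60 and co-chaperones, 4 did: the J-domain genes dnj-12 (67.2), dnj-19 (61.7) and dnj-13 (50.8), and the arsenite-inducible aip-1 (42.8). Of 4 regulators of the heat shock factor, hsf-1, hsb-1, ddl-1 and ddl-2, 0 had one, which is near the share of all protein-coding genes. For these 10 genes the best rank in the window ran from 36 to 1234 in replicate 1 and from 12 to 455 in replicate 2, while the best ranks at the 4-gene cluster were 788 and 7 and at the 2-gene cluster 1899 and 39.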

How the data were processed

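The deposited peak lists on ce11 give a signal for each peak, the authors' own peak height, on a scale set by the library or pool, so it was ranked and compared only within a list. Per the file headers and descriptions, relaxed lists of peaks and background were the input of the irreproducible discovery rate procedure that gave the optimal list. Not given in the sources used here are the aligner, its handling of reads with several matches, the peak caller and the cut-off. No list holds read counts, so the depth of each replicate and the precision of each signal are unknown. The ce10 lists were not used, and 0 sample columns were left unused.

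Summits on ce11 (WBcel235, 1-based) were set against Ensembl release 115 genes, with RefSeq symbols for the copies that share an Ensembl name, by script (Python 3.11.15, pandas 2.3.3, numpy 2.4.6). A summit was counted for a gene within the gene and 2000 bp to both sides. Peaks of different lists were matched where they overlapped by 1 bp or more, and the strongest match was kept. The genome was searched for words of 32 bases present at more than 1 place, and coding sequences and gaps were aligned with Biopython 1.88. The gene windows and the search for repeated words were checked on simulated data. The members and lists were chosen with earlier results of these data known, and no test was run: both replicates form 1 group. Genes named are the 6 members, every other gene in their windows, up to 10 related genes with an optimal summit by signal, and the genes nearest the 3 peaks most like the strongest of each cluster in rank. Apart from daf-21, which was not matched and has no values, any other gene named was chosen after its values were seen. Alternatives were windows of 1000 and 5000 bp, peak overlap in place of the summit, the 272 highest optimal peaks, each replicate alone, runs of 3 units, and words of 25, 50 and 75 bases.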

Additional observations from a re-analysis of the deposited data

How the results depend on the processing

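Leaving out a replicate changed the results most. With the 545 highest peaks of the remaining replicate in place of the optimal list, the number of hsp-16 genes with a summit ran from 0 (without replicate 2) to 6 (without replicate 1), against 6 in the optimal list. The ratio of the highest signal at the 4-gene cluster to that at the 2-gene cluster ran from 1.3 (without replicate 2) to 1.61 (without replicate 1), against 1.75 in the pooled list. Asking for runs of 3 alternating units in place of inverted pairs gave 5 heat shock elements in the gaps, against 11, because each such run holds 2 pairs and 1 run is interrupted by the annotated start of hsp-16.41. The other 19 alternative values stayed in direction and within 1.5 times of the reported ones. The ratio of 1.3 also kept its direction, but lay farther in proportion from its reported value than any of those 19. Among the 19, a window of 1000 bp gave 5 genes with an optimal summit, losing hsp-16.1. Words of 25, 50 and 75 bases left 100% of words repeated in the left arm and 0% at the strongest summits. No paired analysis was possible because there is 1 group and no result comes from a test. Read depth is unknown, and 2 replicates set no error on a signal. Reads from the copies in the arms cannot be assigned to 1 gene by sequence alone, and a peak near several genes does not say which it belongs to.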

Other observations

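The heat-inducible hsp70 genes F44E5.4 and F44E5.5 are a further divergent pair of near-identical genes. F44E5.5 was chosen after its values were seen. In F44E5.4 98.2% of 32-base words stand at more than 1 place in the genome, in F44E5.5 98.1%, and in the gap of 350 bases between them 18.2%. No list had a summit within either gene. The optimal peak there had its summit at II:11756990, 117 bp past the 3′ end of F44E5.4, with a pooled signal of 91.3 and rank 29. The nearest summit was at II:11757029 in replicate 1 (signal 28.7, rank 141) and at II:11756999 in replicate 2 (signal 66.3, rank 12). A further pooled summit lay 55 bp past the 3′ end of F44E5.5, at II:11761916, with a signal of 23.4. Unlike the hsp-16 gaps, the gap of this pair held a summit in the pooled list (II:11759472, signal 19.98) and in replicate 1 (II:11759473, signal 22.8, rank 356), and replicate 2 had none there.

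Among the 538 optimal peaks matched in both replicates, 8 are listed whose rank in replicate 1 most exceeded that in replicate 2. The 3 at hsp-16 genes stood at places 3, 4 and 8. The list thus ends at the last of them, and these ranks were known when the genes were chosen. The other 5, named after their values were seen, were nearest to F26H11.4 (log2 rank ratio 9.18), Y53G8B.2 (8.61), rho-1 (7.83), C17H12.2 (7.50) and M02F4.2 (7.25). Y53G8B.2, C17H12.2 and M02F4.2 were already named for the peaks most like those of the hsp-16 genes. That likeness used the same replicate ranks, so the overlap is built in and is not a further observation. The cause of these rank differences was not tested.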
